A study of Mus musculus with 3 samples.

Results

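The genes described here encode the inducible feedback inhibitors of cytokine receptor signaling: *Socs1*, *Socs2*, *Socs3* and *Cish* of the suppressor of cytokine signaling (SOCS) family, and *Usp18*, an inhibitor of the type I interferon receptor. These 5 genes were taken by symbol from the 32285 genes of the matrices, and each matched 1 row. They were followed in C3H/HeN bone marrow derived macrophages (BMDMs), primary cells grown for 8 days from the marrow of female mice aged 6 to 8 weeks. BMDMs were untreated except for PBS (Ctrl, labelled UI), or received 1 µg/mL of *Bb*LP, the lipoproteins purified from the Lyme disease spirochete *Borrelia burgdorferi*, with collection after 1 hour (LP1) or after 4 hours (LP4). Ctrl cells were collected at 4 hours, so LP1 had no control of its own time. RNA of single cells was sequenced from 1 library per condition, each pooling the cells of 3 wells. The paper describes marrow as pooled in its general culture methods. For the single-cell experiment it describes BMDMs of 3 mice that were treated independently. Cells of different wells or mice cannot be told apart within a library.

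When a cytokine binds its receptor, Janus kinases (JAKs) on the receptor phosphorylate STAT transcription factors, which enter the nucleus and turn on target genes. SOCS proteins and CIS, the product of *Cish*, are among those targets. They bind the receptor or its kinase through an SH2 domain, and through their SOCS box they recruit elongins and a cullin to mark bound proteins for degradation. SOCS1 and SOCS3 also block JAK activity directly. USP18 removes the ubiquitin-like protein ISG15 from other proteins and, apart from that, sits at the interferon receptor subunit IFNAR2 and limits further signaling. In macrophages, SOCS1 is known for restraining interferon signaling, SOCS3 for restraining signaling by the IL-6 receptor, and CIS and SOCS2 for acting on receptors that use STAT5.

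On GRCm38 (mm10), by the GENCODE vM21 annotation, *Socs1* (ENSMUSG00000038037) lies at chr16:10782240-10785536 on the minus strand, *Socs2* (ENSMUSG00000020027) at chr10:95385362-95417180 on the minus strand and *Socs3* (ENSMUSG00000053113) at chr11:117966079-117970047 on the minus strand. *Cish* (ENSMUSG00000032578) lies at chr9:107296026-107302784 and *Usp18* (ENSMUSG00000030107) at chr6:121245906-121270917, both on the plus strand. RefSeq windows of 300 bases around the start of transcription (250 before it, 50 after it, build GRCm38.p6) were given for 3 of the 5 genes, *Socs1*, *Socs3* and *Cish*. They were searched on both strands for the STAT motif TTCNNNGAA, the interferon-response motif (the letters GAAA, any 2 bases, then GAAA) and the NF-kB consensus, and they are shown because the results below separate the genes by their relation to interferon and NF-kB target genes. Capitals mark the matched letters. The *Socs1* stretch is the whole 250 bases before the start (chr16:10785537-10785786, minus strand), and the *Socs3* (chr11:117969501-117969530, minus strand) and *Cish* (chr9:107296654-107296683, plus strand) stretches are the 30 bases around their matches.
Socs1: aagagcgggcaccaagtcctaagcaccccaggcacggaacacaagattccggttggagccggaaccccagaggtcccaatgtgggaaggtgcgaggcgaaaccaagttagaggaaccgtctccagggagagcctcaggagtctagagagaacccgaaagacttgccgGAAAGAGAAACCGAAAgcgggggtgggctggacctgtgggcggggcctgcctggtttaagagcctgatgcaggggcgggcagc
Socs3: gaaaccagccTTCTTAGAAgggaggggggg
Cish: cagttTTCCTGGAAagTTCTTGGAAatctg

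The *Socs1* window held 2 interferon-response matches that share letters, with first bases at -83 and -77 (the first transcribed base is 1 and the base before it -1), and no STAT match. A match to that motif occurred in 3.44% of the 32851 RefSeq windows of this length. The *Socs3* window held 1 STAT match, at -154, and the *Cish* window held 2, at 1 and 12, all counted from the RefSeq start. The longer GENCODE models of both genes already cover these matches, so they are not upstream of those models. A STAT match occurred in 8.3% of all windows. None of the 3 windows held the NF-kB consensus, which 4.51% of all windows held. A match describes letters and does not show that a factor binds there.

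Of 16281 barcodes, 15806 cells passed the limits on UMIs, genes and mitochondrial share, with 6071 in Ctrl, 5065 in LP1 and 4670 in LP4. Their UMIs (unique molecular identifiers, each marking 1 captured transcript) summed to 35688939, 52475723 and 61402275, and the median per cell was 5133, 9343 and 11784. Levels are UMIs per 1000000 UMIs of the library's kept cells (CPM). Because each UMI stands for 1 transcript end, CPM is not divided by gene length. Pairs of libraries shared 4 to 10 barcode sequences. Clusters named macrophage-like held 89.8% to 92.3% of the cells of each library. The cycling-like, dendritic cell-like and stromal clusters also met the limit for macrophage markers, with 7, 5 and 3 of the 8. They were named by their leading genes instead, so the share is not that of all cells with macrophage markers. The summed level of the 8 macrophage markers was 11538 CPM in Ctrl, then 11783 in LP1 and 10750 in LP4, that of the 9 neutrophil markers was 373, 276 and 522 CPM, and that of 5 stromal markers was 3.05, 4.76 and 16.7 CPM. In the macrophage-like clusters alone, the log2 ratios of the 5 genes to Ctrl stayed within their counting intervals. The 3 T or NK cell markers summed to 0.0814 to 0.196 CPM, with *Cd3e* at 0 UMIs in all 3 libraries, and the 4 mast cell or basophil markers to 0.0762 to 0.140 CPM, with *Fcer1a* at 0. As every condition was a single library, no test of the conditions could be run. All intervals are exact, at the 95% level, and cover counting error only, not the spread between cultures, which was not measured. Those of CPM and of log2 ratios take each UMI as independent, so they also leave out the spread between cells of a library.

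All 5 inhibitors had their highest level in LP4, and the genes parted in how early they were higher. *Socs3* and *Socs1* were already higher in LP1 than in Ctrl, and *Cish* slightly so in the sum over all cells. *Usp18* and *Socs2* had LP1 levels whose ratio to Ctrl could not be told from 1 by counting.

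*Socs3* was the most abundant of the 5 in every library, at 52.3 CPM in Ctrl (interval 49.99 to 54.8), 98.9 in LP1 (96.2 to 102) and 648 in LP4 (642 to 655). It rested on 1868, 5189 and 39808 UMIs. LP1 was 1.89-fold above Ctrl (log2 ratio 0.92, 0.84 to 0.99) and LP4 was 12.4-fold above Ctrl (3.63, 3.56 to 3.70). The 3 intervals did not overlap, and LP4 stood 6.56-fold above LP1.

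*Socs1* was rarely counted without treatment, at 1.68 CPM in Ctrl (1.28 to 2.16, 60 UMIs), 3.85 in LP1 (3.34 to 4.42, 202 UMIs) and 90.7 in LP4 (88.3 to 93.1, 5569 UMIs). LP1 was 2.29-fold above Ctrl (log2 ratio 1.20, 0.77 to 1.64). LP4 was 53.9-fold above Ctrl (5.75, 5.39 to 6.15), a higher ratio than that of any other of the 5 genes, with no overlap of the intervals.

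*Cish* was at 4.17 CPM in Ctrl (3.53 to 4.90, 149 UMIs), 5.35 in LP1 (4.75 to 6.02, 281 UMIs) and 61.1 in LP4 (59.2 to 63.1, 3753 UMIs). The Ctrl and LP1 intervals overlapped, and the interval of their log2 ratio, 0.36 (0.07 to 0.66), ended just above 0. LP4 was 14.6-fold above Ctrl (3.87, 3.64 to 4.12).

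*Usp18* was at 18.0 CPM in Ctrl (16.6 to 19.4, 642 UMIs), 16.4 in LP1 (15.3 to 17.5, 861 UMIs) and 189 in LP4 (186 to 193, 11630 UMIs). The log2 ratio of LP1 to Ctrl was -0.13 (-0.28 to 0.02), so any excess in LP1 above 1.01-fold was outside the interval. LP4 was 10.5-fold above Ctrl (3.40, 3.28 to 3.51) and 11.5-fold above LP1. *Gm44148*, a long noncoding RNA on the opposite strand of *Usp18*, counted 45, 26 and 969 UMIs in the same order.

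*Socs2* was the least abundant, at 1.49 CPM in Ctrl (1.11 to 1.94, 53 UMIs), 1.75 in LP1 (1.41 to 2.15, 92 UMIs) and 5.91 in LP4 (5.32 to 6.55, 363 UMIs). The log2 ratio of LP1 to Ctrl was 0.24 (-0.26 to 0.76). LP4 was 3.98-fold above Ctrl (1.99, 1.57 to 2.44).

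**Figure D1:**
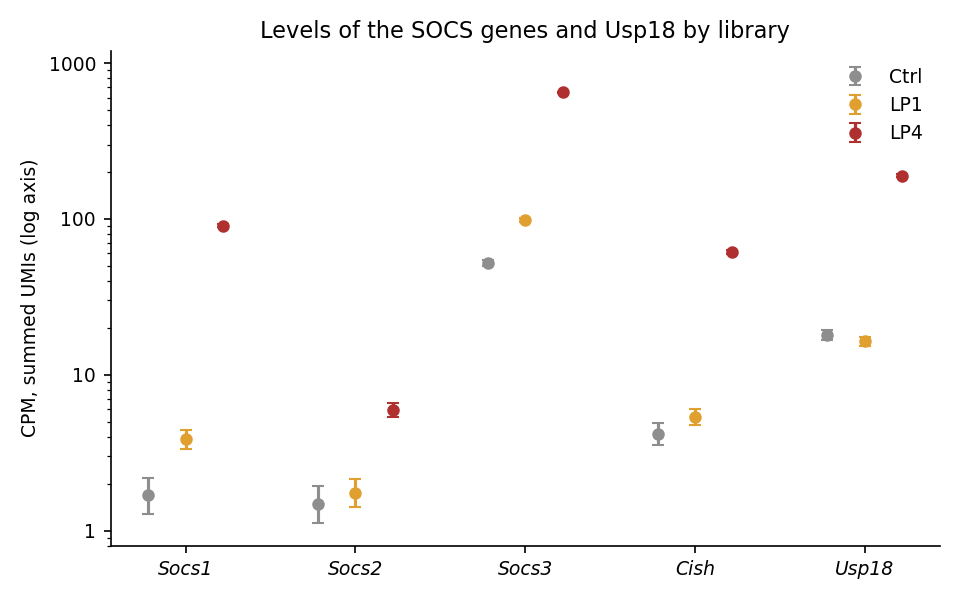
Level of each gene in Ctrl, LP1 and LP4 in CPM on a log axis, where a point is 1 library and its bar the exact 95% Poisson interval, which is shorter than the point at high counts. The LP4 point is the highest for all 5 genes, *Socs3* moves from 52.3 to 98.9 to 648, and the Ctrl and LP1 bars of *Usp18*, *Socs2* and *Cish* overlap.

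In LP4 the order of the levels in CPM was *Socs3*, *Usp18*, *Socs1*, *Cish* and *Socs2*, and no intervals of neighbours in that order overlapped. In Ctrl and LP1 the order was *Socs3*, *Usp18*, *Cish*, *Socs1* and *Socs2*. The intervals of *Socs1* and *Socs2* overlapped in Ctrl, and no intervals of neighbours did in LP1. *Socs1* thus stood below *Cish* in Ctrl and LP1 and above it in LP4.

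Against all genes that reached 10 CPM in at least 1 library of a pair, the 4 h values stood near the top. LP4 was at least 2-fold above Ctrl for 10.6% of 8019 such genes and at least 2-fold below it for 9.91%, and the median log2 ratio was -0.07. All 4 members that passed this minimum were past 2-fold, with *Socs1* in place 10 from the top, *Cish* in place 48, *Socs3* in place 61 and *Usp18* in place 70. *Socs1* and *Cish* passed the minimum only through their LP4 level, so a count over these 4 is no measure of the group. *Socs2* stayed under the minimum in every library. For LP1 over Ctrl, 0.697% of 7747 genes were at least 2-fold higher and 0.465% at least 2-fold lower. *Socs3* and *Usp18* passed the minimum there and neither was past 2-fold, with *Socs3* in place 79 and *Usp18* in place 5221. For LP4 over LP1, which shares LP4 with the comparison above, 8.75% of 7956 genes were at least 2-fold higher and 7.55% at least 2-fold lower. Among the higher ones were *Socs1* (log2 ratio 4.56), *Usp18* (3.53), *Cish* (3.51) and *Socs3* (2.71).

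Cells differed in depth between libraries, so the share of cells in which each gene was seen was computed after thinning every cell to 2000 UMIs, which left out 122 shallower Ctrl, 13 LP1 and 45 LP4 cells. *Socs3* was seen in 10.5% of Ctrl cells (9.75 to 11.3), 17.7% of LP1 cells (16.6 to 18.7) and 71.2% of LP4 cells (69.8 to 72.5). Without thinning the shares were 23.8%, 51.9% and 97.6%, so a *Socs3* UMI was counted in nearly every LP4 cell. Within the cells with a *Socs3* UMI, its mean count was 1.29 UMIs in Ctrl and 8.74 in LP4, where cells were also deeper.

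*Usp18* was seen in 3.31% of thinned Ctrl cells (2.87 to 3.80), 3.29% of LP1 cells (2.81 to 3.82) and 30.3% of LP4 cells (29.0 to 31.7). *Socs1* was seen in 0.252% (0.141 to 0.416), 1.01% (0.753 to 1.33) and 14.0% (13.0 to 15.0), and *Cish* in 0.672% (0.481 to 0.914), 0.871% (0.634 to 1.17) and 11.8% (10.9 to 12.8). *Socs2* reached 0.286% (0.167 to 0.457), 0.396% (0.242 to 0.611) and 0.908% (0.655 to 1.23). The unthinned LP4 shares were 78.6% for *Usp18*, 45.6% for *Socs1*, 47.6% for *Cish* and 6.10% for *Socs2*, against 8.83%, 0.955%, 2.22% and 0.725% in Ctrl.

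*Socs1* was the most unevenly spread of the 4 abundant genes in LP4. The tenth of LP4 cells with most of its UMIs held 52.0% of them, compared with 40.2% for *Cish*, 31.7% for *Usp18* and 23.0% for *Socs3*, values that also depend on how many UMIs each gene has. *Cish* and *Socs1* were seen in a similar share of unthinned LP4 cells, but 324 cells (6.94%) held 5 or more *Socs1* UMIs and 41 (0.878%) held 5 or more *Cish* UMIs. The highest count in 1 cell was 20 for *Socs1* and 9 for *Cish*.

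Neutrophil-like cells, a small cluster of the same wells, gave a view of transcripts that may be free in the droplets, although neutrophils can express *Socs3* themselves. Thinned to the same depth, 0 of 28 such LP4 cells held *Socs1*, *Cish* or *Socs2*, which allows a share of up to 12.3% (exact binomial upper limit). *Socs3* was seen in 39.3% of them (21.5 to 59.4) and *Usp18* in 10.7% (2.27 to 28.2). In macrophage-like LP4 cells the shares were 72.1% for *Socs3*, 30.4% for *Usp18*, 14.1% for *Socs1* and 12.1% for *Cish*. The median depth before thinning was 9261.5 UMIs in the neutrophil-like and 11544.5 in the macrophage-like cells. The *Socs1* share lay above that limit and the *Cish* share just below it. The *Socs2* share of 0.867% lay below it too. Every Ctrl and LP1 share of *Socs1*, *Socs2*, *Cish* and *Usp18* lay below the upper limit for 0 cells (16.1% in Ctrl, 16.8% in LP1). Read as thinned shares beside so few neutrophil-like cells, these values, with that of *Cish* in LP4, cannot be told from free RNA. In LP4 counts summed without thinning, *Cish* was at 8.34 CPM (1.01 to 30.1, 2 UMIs) in the neutrophil-like cells. The macrophage-like clusters of LP4 had 52.5 to 82.9 CPM of *Cish*. *Socs3* was seen in 1 of 21 neutrophil-like Ctrl cells (interval 0.12% to 23.8%), beside 10.8% of macrophage-like cells. That interval covers 10.8%, so this comparison, on 21 cells, cannot tell the Ctrl share of *Socs3* from free RNA either. In LP1 it was seen in 0 of 20 neutrophil-like cells (up to 16.8%), beside 18.2% of macrophage-like cells.

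**Figure D2:**
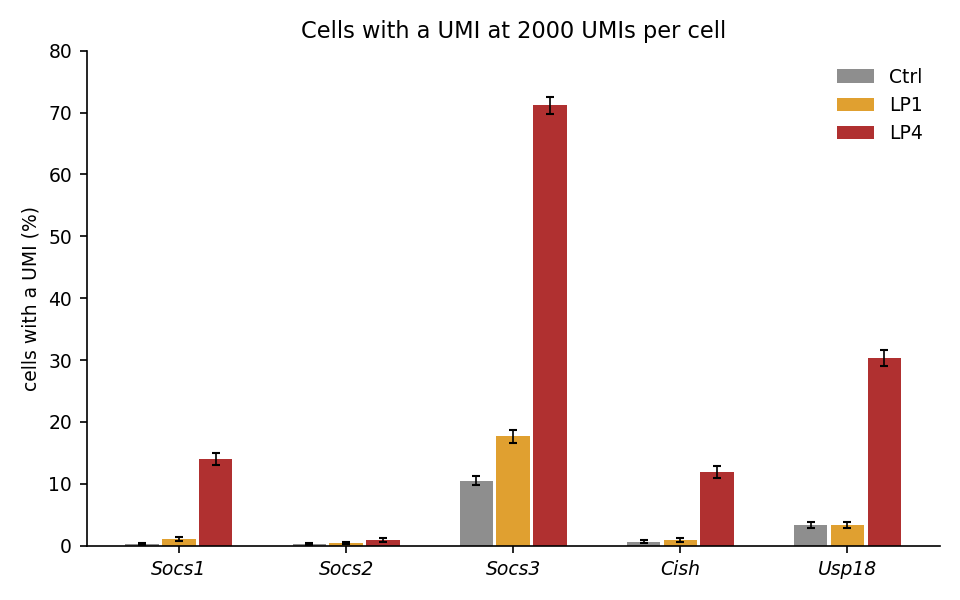
Percent of cells with at least 1 UMI of each gene after thinning every cell to 2000 UMIs, by library, with bars from 0 and exact 95% binomial intervals. *Socs3* reaches 71.2% of LP4 cells, *Usp18* 30.3%, and *Socs1* and *Cish* 14.0% and 11.8%, while *Socs2* stays under 1% in every library.

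To ask whether the genes differed between kinds of BMDMs, cells were clustered on genes that excluded the 5 members and every pathway gene listed below. Genes whose level differed 1.5-fold or more between libraries were also left out, so the clusters were not built to separate cells by treatment. Of 8 clusters, 6 had at least 50 cells in each library: A to D were macrophage-like, E was cycling-like and F was dendritic cell-like. The name of F rests on the antigen-presentation genes *H2-Aa*, *H2-Ab1*, *H2-Eb1* and *Cd74* among its leading genes. No other listed dendritic cell marker, such as *Flt3* or *Zbtb46*, was among them. The levels of *Socs1*, *Socs3*, *Cish* and *Usp18* were higher in LP4 than in Ctrl in 6 of 6 clusters, each with an interval above 0, and that of *Socs2* in 4 of 6.

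*Socs3* had the same pattern over clusters in every library. It was highest in A, at 98.1 CPM in Ctrl (90.8 to 106), 174 in LP1 (165 to 183) and 850 in LP4 (833 to 867), and lowest in B, at 25.2 (21.7 to 29.0), 61.5 (57.2 to 66.1) and 507 (495 to 519). The ratio of A to B narrowed from 3.90 in Ctrl to 2.82 in LP1 and 1.68 in LP4. LP1 was above Ctrl in 6 of 6 clusters, with log2 ratios of 0.83 to 1.29.

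*Socs1* had LP4 levels of 141 CPM in F (121 to 164), 132 in A (125 to 139) and 68.2 in E (61.1 to 75.9), with B, C and D between 77.2 and 90.8. In LP1, *Socs1* was again highest in F (11.1 CPM, 5.07 to 21.1, 9 UMIs) and A (7.56, 5.84 to 9.61). LP1 was above Ctrl beyond counting error in 2 of 6 clusters, A and the cycling-like E. The intervals of their log2 ratios were 1.11 to 2.96 and 0.21 to 3.05. In F, on 9 against 1 UMIs, the interval (-0.12 to 8.19) gave no ratio beyond counting error. In Ctrl the *Socs1* levels of all 6 clusters, 1.27 to 1.93 CPM, had overlapping intervals.

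*Usp18* varied less in LP4, from 163 CPM in B (156 to 170) to 246 in F (219 to 275). *Cish* had its highest LP4 level in A (82.9 CPM, 77.7 to 88.4), and the other 5 clusters lay between 52.5 and 62.4. In Ctrl, *Cish* was instead highest in the cycling-like E (7.16 CPM, 4.58 to 10.6) and in C (6.33, 4.70 to 8.34), compared with 2.28 in B (1.33 to 3.64). For LP1 over Ctrl, *Cish* had an interval above 0 in 0 of 6 clusters, with log2 ratios of -0.11 to 2.15.

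Among clusters A to F, *Socs2* had its highest level in the dendritic cell-like F in every library. It was at 15.0 CPM in Ctrl (6.85 to 28.5), 3.70 in LP1 (0.762 to 10.8) and 13.5 in LP4 (7.87 to 21.6), but on 9, 3 and 17 UMIs. In LP4 the macrophage-like B followed with 8.62 CPM (7.08 to 10.4), and C had the lowest level, 3.71 (2.78 to 4.85). F held 256 cells, so its values are far less precise than those of A to D. The stromal cluster, H, was not among A to F because it had only 22, 20 and 20 cells in Ctrl, LP1 and LP4. Its *Socs2* levels were above those of F, on 4, 6 and 23 UMIs. They were 28.0 CPM in Ctrl (7.64 to 71.8), 28.1 in LP1 (10.3 to 61.1) and 67.9 in LP4 (43.1 to 102).

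**Figure D3:**
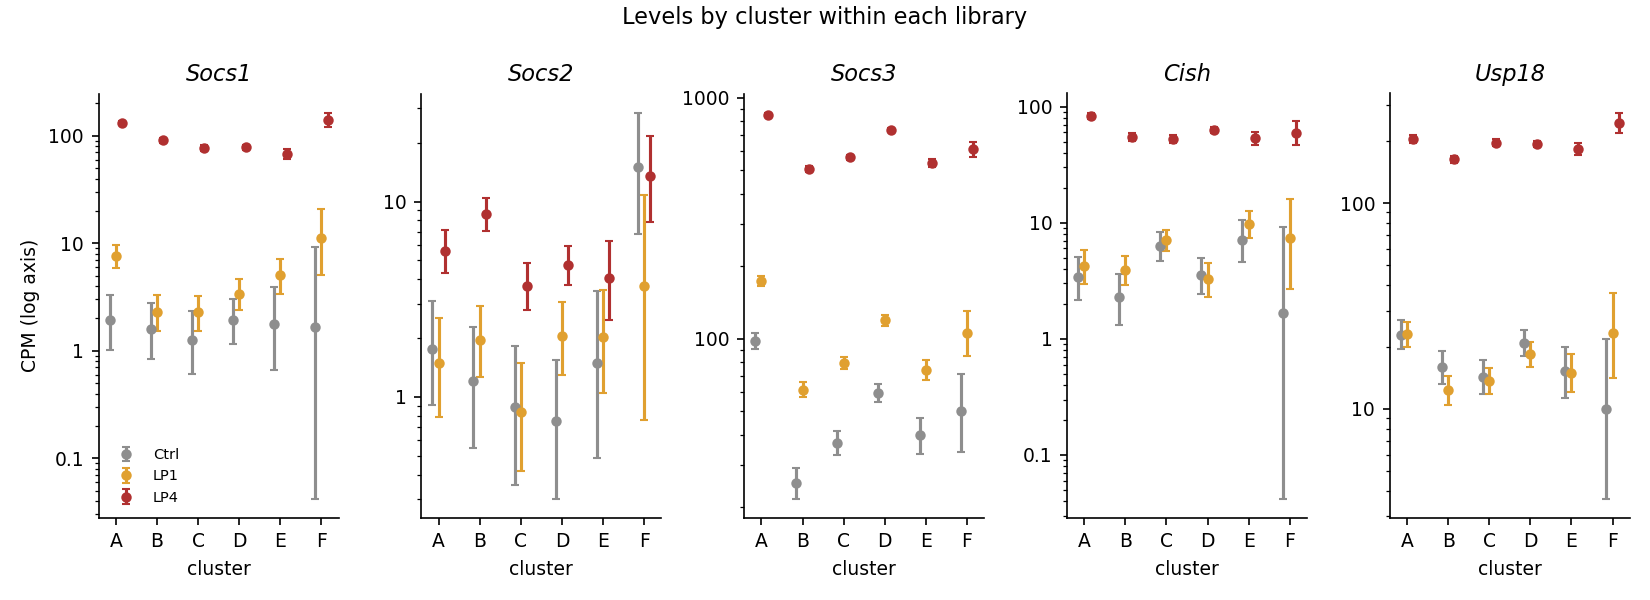
Level of each gene in CPM on a log axis, with a scale of its own, in clusters A to F of each library, where bars are exact 95% Poisson intervals. LP4 lies above Ctrl in 6 of 6 clusters for every gene but *Socs2*. *Socs3* keeps its peak in A and its lowest level in B in all 3 libraries. Of these 6 clusters, *Socs2* is highest in F, on few UMIs. The small stromal cluster H, where its level was higher, is not drawn.

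Members were next read against the response of the same cell. Cells of each library were ranked by the summed share of UMIs from 16 interferon-stimulated genes, such as *Ifit1*, *Rsad2* and *Irf7*, or from 19 NF-kB target genes, such as *Nfkbia*, *Tnfaip3* and *Il1b*, and were divided into 5 equal groups (quintiles). These are ranges and not cell types: 115 to 369 of the 4670 LP4 cells lay within 5% of each dividing value.

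*Socs1* followed the interferon-stimulated genes across LP4 cells, at 38.0, 55.7, 71.9, 111 and 188 CPM from the first to the last quintile (log2 of last over first 2.31, 2.16 to 2.46). *Usp18* did so too, at 111, 171, 184, 221 and 264 CPM (1.24, 1.15 to 1.34). *Socs3* was nearly level across the same quintiles, at 669, 650, 611, 616 and 710 CPM (0.09, 0.04 to 0.13). *Cish* went from 59.4 to 68.4 CPM (0.20, 0.05 to 0.36), and *Socs2* from 6.94 to 5.68 (-0.29, -0.80 to 0.21). The median depth of these quintiles was between 10566 and 12632 UMIs per cell.

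Across the NF-kB quintiles the order turned around. *Socs3* stood at 476, 593, 648, 712 and 886 CPM (log2 of last over first 0.90, 0.85 to 0.94), and *Cish* at 41.4, 55.2, 54.9, 71.9 and 91.6 CPM (1.15, 1.00 to 1.30). *Usp18* went from 176 to 186 CPM (0.08, -0.01 to 0.16) and *Socs1* from 76.9 to 99.5 (0.37, 0.25 to 0.50). With cells ranked by the thinned list genes, the *Socs1* value was -0.024, on the other side of 0. The median depth fell from 13715 UMIs per cell in the first NF-kB quintile to 9675.5 in the last, and its part in these values was not tested.

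Ctrl and LP1 cells were divided in the same way. In Ctrl, *Usp18* went from 4.39 CPM in the first interferon quintile to 53.2 in the last (log2 ratio 3.60, 3.06 to 4.19), and in LP1 from 3.57 to 49.6 (3.79, 3.31 to 4.32). *Socs1* went from 1.45 to 7.59 CPM over the interferon quintiles of LP1 (2.39, 1.57 to 3.30), and in Ctrl its 9 and 14 UMIs gave no ratio beyond counting error. *Cish* went the other way over the interferon quintiles of Ctrl, from 5.85 to 2.82 CPM (-1.05, -1.94 to -0.22, 40 and 18 UMIs). *Socs3* went from 20.7 to 89.6 CPM over the NF-kB quintiles of Ctrl (2.12, 1.86 to 2.38) and from 52.1 to 163 over those of LP1 (1.64, 1.501 to 1.78). *Socs3* also went up over the interferon quintiles, from 43.7 to 63.4 CPM in Ctrl (0.54, 0.32 to 0.76) and from 82.7 to 119 in LP1 (0.52, 0.40 to 0.65). *Cish* over the NF-kB quintiles of Ctrl gave no ratio beyond counting error (0.44, -0.38 to 1.26), and in LP1 it gave 0.71 (0.05 to 1.38). Over the NF-kB quintiles of LP1, *Socs1* (0.67, 0.01 to 1.34) and *Usp18* (0.35, 0.03 to 0.66) also went up. In LP1 the ratios of *Socs1* and *Usp18* were thus larger over the interferon quintiles, and those of *Socs3* and *Cish* over the NF-kB quintiles. *Cish* over the interferon quintiles of LP1 gave -0.56 (-1.14 to 0.02). In Ctrl, neither *Socs1* (0.09, -1.54 to 1.63) nor *Usp18* (-0.16, -0.56 to 0.23) gave an NF-kB ratio beyond counting error.

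**Figure D4:**
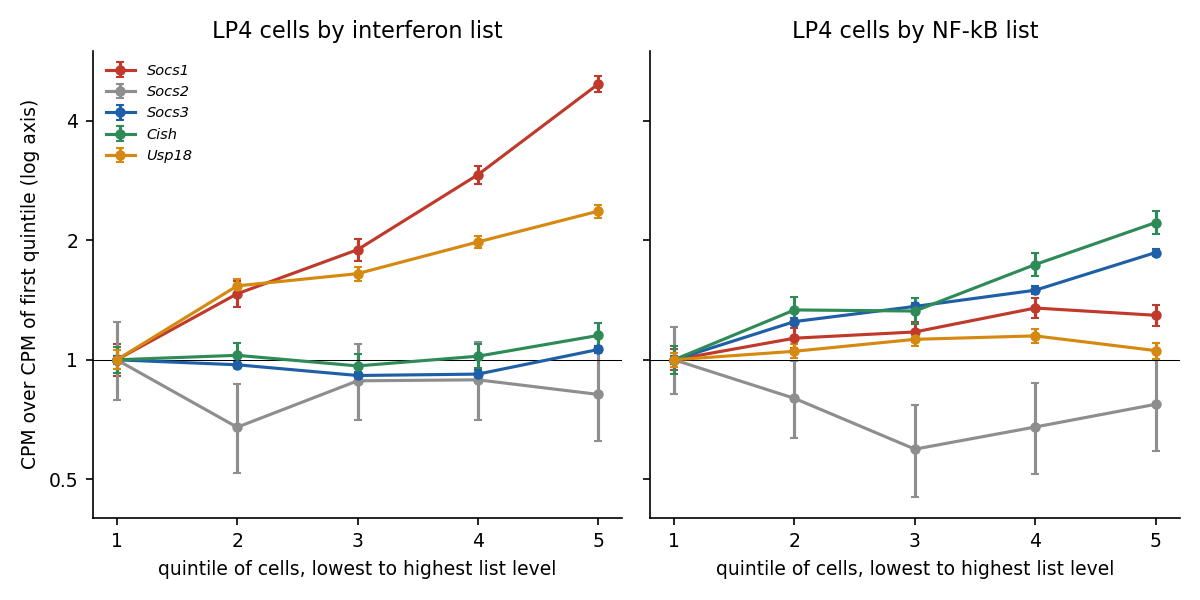
Level of each gene in LP4 cells divided by its level in the first quintile, on a log axis, over quintiles of cells by the interferon list (left) and the NF-kB list (right), where bars are the exact 95% Poisson interval of each quintile's own count. *Socs1* and *Usp18* climb over the interferon quintiles, *Cish* and *Socs3* over the NF-kB quintiles, and *Socs2* climbs over neither. Smaller log2 ratios of last over first quintile are those of *Socs1* by the NF-kB list (0.37) and of *Cish* (0.20) and *Socs3* (0.09) by the interferon list.

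Some single cells held transcripts of more than 1 of these genes. Of LP4 cells thinned to 2000 UMIs, 16.3% held none of the 5, 46.9% held 1, 29.4% held 2, 6.83% held 3 and 0.497% held 4. *Socs1* and *Usp18* were seen together in 245 cells (5.30%, 4.67 to 5.98), 1.25 times the 4.24% that the product of their shares gives. *Usp18* was present in 37.9% of cells with *Socs1* and in 29.1% of cells without it. The *Socs1* and *Socs3* pair (9.86% against 9.94%) and the *Cish* and *Usp18* pair (3.50% against 3.59%) were at about the product. *Socs3* and *Cish* were together in 9.02% of cells (8.21 to 9.88) against a product of 8.43%.

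The genes whose levels followed each member most closely were taken over 18 groups, the 6 clusters in each of the 3 libraries, as Pearson correlations of log2(CPM + 5) with 7862 other genes. The groups of a library share its step between conditions, so the values are a description only. *Irgm2*, an interferon-induced GTPase gene, came first for both *Socs1* (r = 0.99) and *Usp18* (r = 0.99). *Fpr2*, *Atp11b*, *Fmnl2* and *Sppl2a* followed for *Socs1*, and *Daxx*, *Olfr56*, *Rnf213* and *Xrn1* for *Usp18*. For *Socs3* the list was *Tent2*, *Ms4a6d*, *Sav1*, *B2m* and *Rnf114* (r = 0.98 to 0.99). For *Cish* it was *Ssr3*, *Fndc3a*, *Nt5c3*, *Slfn3* and *Morc3* (0.98 to 0.99). For *Socs2* it was *F10*, *P2ry14*, *Ap3m2*, *Il21r* and *Cd164*, with lower values (0.83 to 0.84). Once each library's mean was taken out, 1 of these 5 genes stayed among the first 5 for *Cish* (*Ssr3*) and 0 did for each other member. The correlation between members then was 0.62 for *Socs1* with *Usp18* and 0.64 for *Socs3* with *Usp18*, and -0.06 for *Socs3* with *Cish*.

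Around these inhibitors, 77 genes of the same pathways were counted. For LP4 over Ctrl, 57 passed 10 CPM, 20 of them were at least 2-fold higher and 3 at least 2-fold lower, beside 10.6% and 9.91% of all genes tested, and their median log2 ratio was 0.55 beside -0.07. Of the 20, *Il6*, *Csf3* and *Il13ra1* passed 10 CPM only through LP4 and so had to be higher. For LP1 over Ctrl, 54 passed, 1 was at least 2-fold higher and 0 were lower, beside 0.697% and 0.465% of all genes. That 1 gene was the cytokine *Osm*, at 22.8 CPM in Ctrl, then 55.2 in LP1 and 28.5 in LP4. Nearly all 2-fold differences of these lists were in LP4.

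The other SOCS genes stood apart from the members. *Socs4*, *Socs5*, *Socs6* and *Socs7* lay between 7.51 and 27.3 CPM in Ctrl, and 1 of the 3 that passed was past 2-fold in LP4: *Socs7*, at 18.0 CPM in Ctrl, then 21.4 in LP1 and 37.4 in LP4 (log2 ratio 1.05 to Ctrl, 0.92 to 1.18). Of the 4 genes for the ligase that the SOCS box recruits, *Eloc* (elongin C) was at 26.6, 40.7 and 83.0 CPM, past 2-fold in LP4 (1.64). Its partner *Elob* (elongin B) was at 458, 278 and 281 CPM, and *Cul5*, the cullin scaffold, at 34.7, 41.8 and 44.6 CPM, neither past 2-fold.

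Among the targets of the inhibitors, 1 of 3 JAK genes that passed and several STAT genes were past 2-fold in LP4. *Jak2* was at 117 CPM in Ctrl, then 126 in LP1 and 470 in LP4 (log2 ratio to Ctrl 2.01). *Jak1*, at 221, 218 and 275 CPM, was not past 2-fold. *Stat2*, which carries type I interferon signals, was at 29.1, 24.0 and 256 CPM (3.14). *Stat5a* was at 17.8, 22.8 and 87.5 CPM (2.30), *Stat3* at 69.5, 69.6 and 252 (1.86) and *Stat5b* at 20.5, 21.5 and 47.6 (1.22). *Stat6*, the factor of IL-4 signaling, was at 62.7, 61.6 and 48.1 CPM and did not pass 2-fold.

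The ISG15 cycle, whose last step USP18 reverses, was higher at both of its ends in LP4. *Isg15* itself was at 68.6 CPM in Ctrl, then 85.4 in LP1 and 700.0 in LP4 (log2 ratio to Ctrl 3.35), and the ligase *Herc6* was at 31.3, 26.8 and 434 CPM (3.79). The activating enzyme *Uba7*, at 17.1, 12.1 and 24.7 CPM, and the conjugating enzyme *Ube2l6*, at 32.4, 33.0 and 53.3 CPM, were under 2-fold in LP4 over Ctrl, so 2 of the 4 genes of the cycle were past it.

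The other inhibitors of the pathway had 1 gene past 2-fold in each direction, a share near that of all genes. Of 9 phosphatase, PIAS and adaptor genes that passed, *Ptpn1*, whose product dephosphorylates JAK2 and TYK2, was past 2-fold upward, at 184 CPM in Ctrl, then 158 in LP1 and 461 in LP4 (log2 ratio to Ctrl 1.33). *Ptpn6*, which encodes SHP-1, was past 2-fold downward, at 106, 91.1 and 48.0 CPM (-1.14), and the other 7 were neither.

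Among ligands, 3 of the 6 that passed were past 2-fold upward in LP4 and 1 downward. *Il6* was at 1.09 CPM in Ctrl and 24.7 in LP4 (log2 ratio 4.50), *Il15* at 59.9 and 780 (3.70) and *Csf3* at 4.54 and 10.3 (1.18), while *Csf1* was at 99.3 and 47.4 (-1.07). Since *Il6* and *Csf3* entered through their LP4 level alone, that count is no measure of the list. *Ifnb1* counted 2 UMIs in Ctrl, then 10 in LP1 and 96 in LP4, all under 10 CPM. Among 15 receptor genes that passed, *Il4ra* (31.6 CPM in Ctrl, 647 in LP4, log2 ratio 4.36), *Il13ra1* (7.34 and 62.8, 3.10) and *Csf3r* (35.2 and 78.8, 1.16) were past 2-fold upward, *Il13ra1* having passed the minimum through LP4 alone. *Il6ra* was past it downward (60.2 and 26.8, -1.17). *Ifnar2*, which encodes the receptor subunit that USP18 binds, was at 392 CPM in Ctrl, then 369 in LP1 and 528 in LP4, under 2-fold. Of the genes of the lipoprotein sensor, *Tlr2* (107 and 309, 1.53), *Tirap* (11.6 and 26.5, 1.20) and *Myd88* (15.4 and 58.0, 1.92) were past 2-fold, which is 3 of the 7 that passed. With TMM scaling, which shifts every LP4 to Ctrl log2 ratio by 0.17, 0 of the genes *Ptpn6*, *Csf1* and *Il6ra* were past 2-fold downward. Upward, 21 pathway genes were past 2-fold with TMM, beside 20 with CPM.

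**Figure D5:**
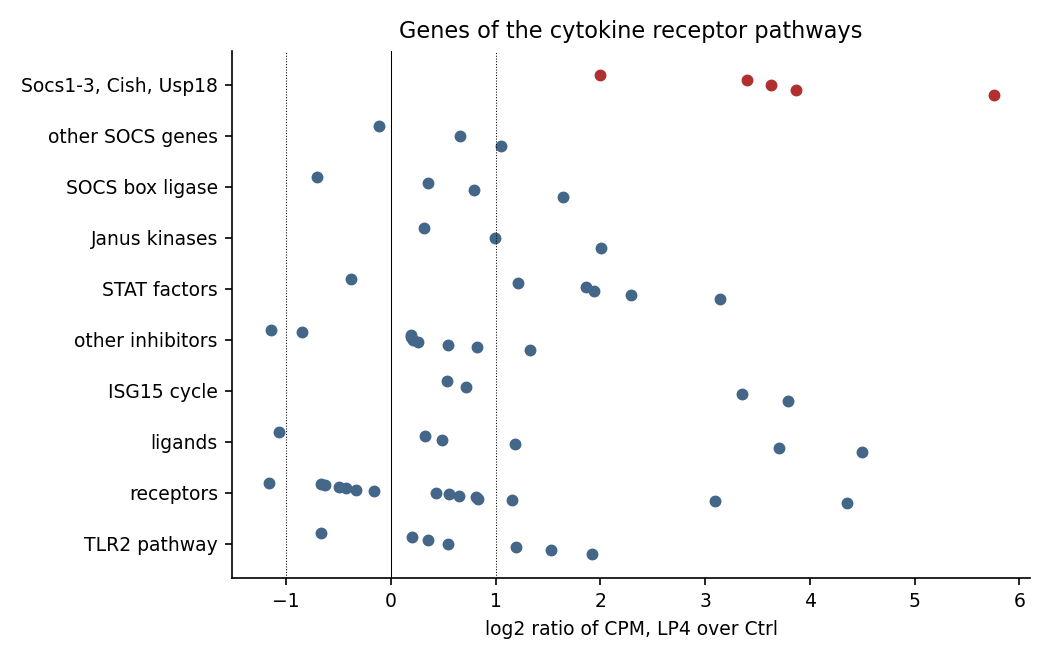
Log2 ratio of CPM, LP4 over Ctrl, for the 5 members (red) and for the 57 genes of the pathway lists that reached 10 CPM in either library (blue, 1 point per gene). Dotted lines mark 2-fold: the members lie from 1.99 to 5.75, *Socs1* lies farthest to the right, and 3 genes lie to the left of the lower one. *Socs2*, at 1.99, is shown although it is under 10 CPM.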

How the data were processed

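The authors aligned the reads of 10x Genomics 3' libraries to the mouse mm10 transcriptome with Cell Ranger 7.1.0, per the file headers, and deposited the raw UMI counts of every gene in each called barcode. A barcode was kept if it had over 500 UMIs, over 500 genes and a mitochondrial share under 5%. Counts were summed per library or per cluster. CPM had exact Poisson, shares exact binomial and log2 ratios exact conditional binomial intervals. A count under 3 was set to 3 for calls past 2-fold.

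Clustering used scanpy 1.11.5 with leidenalg 0.10.2: 2000 variable genes centred within each library, 30 principal components, 20 neighbours and a resolution of 0.5, with a seed of 20. The variable genes came from 5211 with at least 200 UMIs and a CPM that differed under 1.5-fold between libraries. A name needed 3 markers of its list among the 10 leading genes, or 3 macrophage markers in at least 50% of cells. Doublets were not removed; cells with the highest 5% of doublet scores were left out as an alternative. *Mx1* and *Mx2* of the interferon list were not used here. Python 3.11.15, scipy 1.17.1 and edgeR 4.0.16 (TMM only) were used. Ratios and intervals were run on simulated Poisson counts, the model that the intervals assume. Those counts held no spread between cells or cultures, so the run checks the computation and not the cover of such spread. The members, lists and alternatives were chosen with earlier results of these data known. Genes named are the members, pathway genes past 2-fold and the 5 most correlated genes per member, searched without ribosomal protein, mitochondrial or unnamed genes. *Gm44148* and the pathway genes named although under 2-fold or 10 CPM were chosen after their values were seen. The results for 2 listed genes are not reported here.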

Additional observations from a re-analysis of the deposited data

Results flagged for a closer look

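In LP1 against Ctrl, *Socs2* had ratios of opposite direction in different clusters, each with an interval that left out 0. The log2 ratio was 1.45 in the macrophage-like cluster D (0.18 to 2.91, 23 against 7 UMIs) and -2.02 in the dendritic cell-like cluster F (-4.54 to -0.02, 3 against 9 UMIs). The difference between the clusters was not tested, and 18 such intervals, 6 clusters in 3 comparisons, were examined for each gene.

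Barcodes over the mitochondrial limit, left out of the values of the report, held all 5 genes in LP4, and *Socs3* in LP1, above the Ctrl level of kept cells by more than counting error. The 339 such barcodes of LP4 held *Socs3* at 532 CPM (507 to 557), *Usp18* at 156 (143 to 170), *Cish* at 57.3 (49.5 to 66.0), *Socs1* at 55.5 (47.9 to 64.1) and *Socs2* at 5.94 (3.63 to 9.17). All but *Socs2* and *Cish* had intervals that ended below the level of the kept LP4 cells. The 51 such barcodes of LP1 held *Socs3* at 145 CPM (105 to 196), and *Socs1* and *Usp18* at 6.75 CPM each (0.818 to 24.4, on 2 UMIs), with 0 UMIs of *Cish* and *Socs2*. The 22 of Ctrl held 1 UMI of *Socs3* and 0 of the other members.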

How the results depend on the processing

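No paired analysis was possible because each condition is 1 library. Of 219 alternative values, 158 stayed within the counting interval or within 1.5 times the count, 60 moved and 1 reversed. The log2 ratios of LP1 to Ctrl stayed within their intervals under all 7 alternatives. For LP4 to Ctrl, the ratio of *Socs3* was 3.80 with TMM, 3.84 with median-of-ratios scaling and 3.54 as a mean of cell shares, and that of *Usp18* was 3.57 and 3.60 with the first 2. These scalings shift all LP4 to Ctrl ratios by 0.17 and 0.21. The share of higher calls among all genes past 2-fold was 51.7% with CPM and 64.8% with TMM for LP4 over Ctrl, and 60.0% and 75.5% for LP1 over Ctrl.

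Shares of cells depend on the depth by construction. Thinned to 1000 UMIs, they were in Ctrl, LP1 and LP4 0.116%, 0.671% and 8.30% for *Socs1*, 0.116%, 0.178% and 0.494% for *Socs2*, 5.47%, 9.54% and 47.9% for *Socs3*, 0.347%, 0.415% and 6.30% for *Cish*, and 1.80%, 1.54% and 16.8% for *Usp18*. Thinned to 5000 UMIs, they were 0.757%, 1.92% and 27.7% for *Socs1*, 0.788%, 0.633% and 2.20% for *Socs2*, 19.1%, 35.4% and 92.2% for *Socs3*, 1.80%, 2.22% and 25.7% for *Cish*, and 7.76%, 6.95% and 55.7% for *Usp18*. Thinning to 5000 left out 2899 Ctrl and 329 LP1 cells, and the intervals of the Ctrl and LP1 shares of *Socs2* overlapped (0.511 to 1.16 and 0.428 to 0.903).

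The log2 ratio of the highest to the lowest LP4 cluster was 0.65 for *Socs3* at a resolution of 0.3, and 1.42 for *Socs1*, 2.87 for *Socs2* and 1.00 for *Cish* at 0.8. With cells ranked by thinned list genes, the last over the first interferon quintile was 1.83 for *Socs1* and 1.05 for *Usp18*. The NF-kB value was 0.67 for *Socs3* and 0.94 for *Cish*, and -0.024 for *Socs1*, which reversed. The *Socs1* and *Usp18* pair was at 1.09 times the product at 5000 UMIs. Among pathway genes, a minimum of 1 CPM gave 2 higher for LP1 over Ctrl and 2 lower for LP4 over LP1, and TMM gave 0 lower for LP4 over Ctrl. The causes of these differences were not tested beyond what each setting changes.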
